A study of Mus musculus with 17 samples.

Results

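The genes carried by the mitochondrial chromosome were followed through a mouse model of colitis, in the choroid plexus of the brain. They were taken as all annotated genes of chromosome M, whose symbols begin with mt-, and number 37 of the 55487 genes in the count table. They comprise 13 protein-coding genes, 2 rRNA genes and 22 tRNA genes. Together they took 8406990 of 307766812 counts: 4492053 fell on protein-coding genes, 3895599 on rRNA genes and 19338 on tRNA genes.

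RNA was sequenced from choroid plexus dissected from the lateral ventricles of C57BL/6 mice. This tissue is a vascularised epithelium that secretes cerebrospinal fluid. The study asked how its transcripts change while colitis is set off by dextran sodium sulfate (DSS) in the drinking water, an agent toxic to the gut epithelium. The 17 libraries form a control group (CTRL, n = 5, for which the labels name no agent), T1 (1 day of DSS, n = 4), T3 (3 days of DSS, n = 4) and T5 (3 days of DSS, then 2 days of water, n = 4). Age and sex are not given in the labels, and neither is whether each sample is a separate animal, so p-values measure the spread between these samples, which may be technical. Total RNA was turned into libraries by SMART-Seq v4, a method that starts cDNA synthesis at A tails and amplifies the product by PCR.

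The mitochondrial genome is read as long precursors from both of its strands. Most genes lie on one strand, and the tRNAs between them are cut out to release the mRNAs and rRNAs. Most of these mRNAs and rRNAs then receive short A tails. The 13 proteins are core subunits of complexes I, III, IV and V of oxidative phosphorylation, the rRNAs build the mitochondrial ribosome, and the tRNAs decode the mRNAs. The other subunits and all factors that copy, transcribe, process and translate this genome come from nuclear genes. The choroid plexus epithelium is rich in mitochondria, which supply ATP for ion transport into cerebrospinal fluid.

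Some differences between libraries did not follow the groups. Totals ran from 8875921 to 26839417 counts, and Ttr, the main transcript of the epithelium, took 6.61 to 13.6% of them. The number in each sample's title runs from 1 to 26 in 13 libraries and is 28 or above in the other 4, which are T1 replicates 2, 3 and 4 and T3 replicate 4. The labels do not say what the number stands for. In T1 only replicate 1 lies outside this set, so the first day of DSS and the high sample numbers can hardly be told apart. Against the other 13, the 4 libraries had a higher mean log2 CPM (read counts normalised to library size with edgeR's TMM factors) of 8 nuclear-retained long non-coding RNAs (4.79 to 5.68 against 3.10 to 4.57) and of 10 endothelial markers (4.48 to 5.29 against 2.96 to 4.26). For 12 markers of the choroid plexus epithelium, all detected, the range was 10.17 to 10.76 against 10.29 to 10.88, and for 10 neuronal markers it was 3.82 to 5.15 against 0.32 to 5.495. Astrocyte markers ran from 4.09 to 6.57 against 2.07 to 6.73, and oligodendrocyte markers from 5.29 to 8.43 against 2.02 to 9.35. The part these differences play in the mitochondrial values was not tested.

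Reads were not spread evenly over the mitochondrial genes. Reads were found on 28 of the 37, and 9 had none in any library. The 9 were the protein-coding genes mt-Co2, mt-Atp8, mt-Atp6 and mt-Nd4l and the tRNA genes mt-Ty, mt-Ts1, mt-Td, mt-Tk and mt-Th. mt-Co3 had 2 reads in all, 1 in CTRL replicate 2 and 1 in T3 replicate 2. A count of 0 in a library allows up to 3 counts, or 0.112 to 0.338 CPM at these depths, counting error only. Reads lost in mapping or counting are not covered by this limit. From mt-Co2 to mt-Nd4l, chrM:7013-10173 on GRCm38, mt-Nd3 was the only protein-coding gene with more than 2 reads, and it had 4118 counts over the 17 libraries. The genes on both sides of this stretch, mt-Co1 and mt-Nd4, had 598717 and 372664.

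Among the protein-coding genes, those with few or no reads were, apart from mt-Atp8, those whose sequence also occurs in annotated nuclear transcripts. Every 50-base window of each mitochondrial transcript was looked up, on both strands, among all nuclear transcripts of the same annotation (GENCODE release M21, GRCm38). The share of windows with an exact nuclear match was 100% for mt-Co2, 99.9% for mt-Co3, 99.5% for mt-Atp6, 98.8% for mt-Nd4l and 98.0% for mt-Nd3. It was 62.2% for mt-Nd4, 51.1% for mt-Co1, 8.2% for mt-Nd2, 7.6% for mt-Nd5 and 1.0% for mt-Rnr2. No window was shared in mt-Nd1, mt-Nd6, mt-Cytb, mt-Rnr1 or any tRNA gene. mt-Atp8 and the 5 tRNA genes without reads had no match in an annotated transcript either. The search covered annotated transcripts only, and nuclear sequence between them was not searched here. How the authors treated reads that match several places is not given in the sources used here, and its part in the missing counts was not tested.

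The matches lay in 15 nuclear genes, of which 7 are pseudogenes side by side on the minus strand of chr1:24611535-24616197, a block of 4663 bases. In order along the mitochondrial chromosome they match mt-Co1 (Gm29216), mt-Co2 (Gm28661), mt-Atp6 (Gm10925), mt-Co3 (Gm28437), mt-Nd3 (Gm28438), mt-Nd4l (Gm10222) and mt-Nd4 (Gm28439). The nuclear and mitochondrial positions of mt-Co2, mt-Atp6, mt-Co3 and mt-Nd3 add up to the same sum, 24622578, and those of mt-Nd4l and mt-Nd4 to 24622577, so these pseudogenes keep the order and spacing of the mitochondrial genes. mt-Atp8, mt-Ts1, mt-Td and mt-Tk, all without a read, fall by position wholly or mostly between annotated pseudogenes of this block, where the nuclear sequence was not analysed here. So do mt-Tg and mt-Tr, which had 23 and 62 counts over all libraries. mt-Ty and mt-Th, also without a read, lie outside the block. The 15 nuclear genes held only 1247 counts over all libraries, 0.148 per 1000 counts on mitochondrial genes. The highest were Gm13341 (426 counts, a match to mt-Co2), Gm28437 (267, mt-Co3), Gm13340 (220, mt-Co1), Gm4076 (67, mt-Nd5) and Gm28438 (54, mt-Nd3).

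The edges of the shared stretch show where matches to annotated nuclear transcripts stop in mt-Nd3 and mt-Nd4, and where the chromosome 1 match begins in mt-Co1. The lines below give stretches of the mitochondrial transcripts of GENCODE M21, 5′ to 3′. They were chosen because they span those edges or show a gene that is wholly shared or wholly without an annotated match. Capitals mark bases inside an exact nuclear match of at least 50 bases, in mt-Co1 the match to Gm29216, and lower case marks bases outside one.
mt-Co1, bases 1037 to 1096, chrM:6364-6423: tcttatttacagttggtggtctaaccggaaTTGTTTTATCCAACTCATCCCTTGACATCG
mt-Co2, bases 1 to 60, chrM:7013-7072: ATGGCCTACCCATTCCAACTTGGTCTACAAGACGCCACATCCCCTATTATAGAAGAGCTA
mt-Nd3, bases 1 to 60, chrM:9459-9518: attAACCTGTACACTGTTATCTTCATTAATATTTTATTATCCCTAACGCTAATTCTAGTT
mt-Nd3, bases 289 to 348, chrM:9747-9806: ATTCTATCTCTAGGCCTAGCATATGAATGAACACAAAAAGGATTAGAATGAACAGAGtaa
mt-Nd4, bases 847 to 906, chrM:11013-11072: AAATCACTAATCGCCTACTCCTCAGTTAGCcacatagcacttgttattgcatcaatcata
mt-Cytb, bases 1 to 60, chrM:14145-14204: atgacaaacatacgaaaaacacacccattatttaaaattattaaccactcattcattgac
mt-Co2 has no lower-case base in its line and had no read, and mt-Cytb has no capital and had 1112820 counts. In mt-Nd3 only the outermost 3 bases at each end lie outside an annotated match. mt-Nd4 lies outside one from the middle of its line onward, and mt-Co1 is free of the chromosome 1 match up to the middle of its own. Lower case does not show that a base is unique, since only annotated transcripts were searched. Lower-case bases of mt-Co1 may also fall in another annotated match, since Gm13340 on chromosome 2 matches 411 of its windows.

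**Figure D1:**
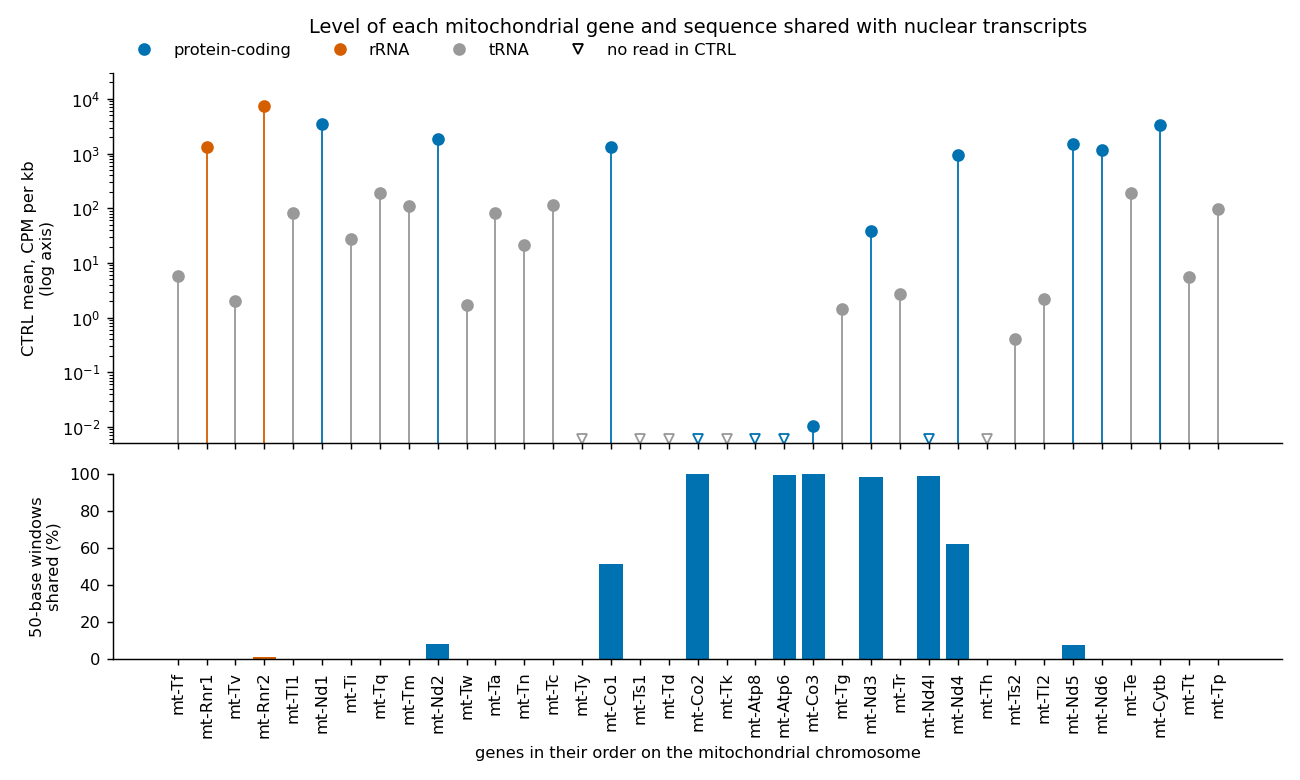
Upper panel: mean CPM per kilobase of gene length in the 5 CTRL libraries on a log axis, for the 37 genes in their order on the chromosome, with open triangles for genes without a read in CTRL; lower panel: percent of 50-base windows with an exact match in an annotated nuclear transcript (sequence outside annotated transcripts was not searched). The gap from mt-Co2 to mt-Nd4l in the upper panel lies over the tall bars of the lower one, except at mt-Atp8 and the tRNA genes, which had no match in an annotated transcript.

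Levels could be compared between genes only per length. This scale does not correct for differences in A tails, where the library method starts cDNA synthesis, and their part was not tested. In CTRL, mt-Rnr2, the large rRNA (chrM:1094-2675), stood highest at 7348 ± 921 CPM per kb (SD, n = 5). mt-Nd1, a subunit of complex I (chrM:2751-3707), and mt-Cytb, the cytochrome b of complex III (chrM:14145-15288), followed at 3467 ± 374 and 3383 ± 299 CPM per kb, which differ by less than their SD. mt-Nd2 (chrM:3914-4951), also of complex I, stood at 1854 ± 210.5.

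The next genes lay closer together. mt-Nd5 of complex I (chrM:11742-13565) had 1495 ± 108 CPM per kb, mt-Co1, the catalytic subunit of complex IV (chrM:5328-6872), 1335 ± 313, and mt-Rnr1, the small rRNA (chrM:70-1024), 1332 ± 176. mt-Nd6 (chrM:13552-14070), the only protein-coding gene on the minus strand, had 1154 ± 108, and mt-Nd4 (chrM:10167-11544) had 941 ± 114. The strand setting of the counting is not given in the sources used here, so mt-Nd6 counts may include plus-strand RNA across its bases. The neighbours mt-Nd5 and mt-Co1, and mt-Co1 and mt-Rnr1, differ by less than the SD of mt-Co1. Divided by the number of unshared 50-base windows in place of gene length, the CTRL level of mt-Co1 becomes 2822 and that of mt-Nd4 2583 CPM per kb. These are not the same measure as the levels per gene length of the other genes. They also depend on the window, as mt-Co1 has 731 unshared windows of 50 bases and 1000 of 100 bases. mt-Nd3 (chrM:9459-9806) stood far below, at 39.1 ± 4.07 CPM per kb of gene length.

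The share of all counts on protein-coding mitochondrial genes was 1.56% ± 0.158 (SD, n = 5) in CTRL, 1.30% ± 0.2545 in T1, 1.405% ± 0.129 in T3 and 1.56% ± 0.129 in T5 (n = 4 each). By library the shares were 1.76, 1.6, 1.44, 1.62 and 1.36% in CTRL and 1.67, 1.26, 1.205 and 1.08% in T1. T3 had 1.54, 1.46, 1.38 and 1.24%, and T5 had 1.46, 1.695, 1.44 and 1.64%. Every treated group overlapped CTRL, and the 4 lowest shares of the series, 1.08 to 1.26%, are those of the 4 libraries of sample number 28 and above. T1 replicate 1, at 1.67%, lay within the CTRL range. In bulk tissue, fewer cells of a type and less of a transcript per cell cannot be told apart.

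The share on the rRNA genes was wider spread, and highest after the return to water. It was 1.615, 1.22, 1.08, 1.33 and 1.13% in CTRL (mean 1.27 ± 0.212) and 1.695, 0.774, 0.767 and 0.772% in T1 (1.002 ± 0.462). T3 had 1.305, 1.11, 1.555 and 0.784% (1.19 ± 0.325), and T5 had 1.49, 2.05, 1.39 and 1.82% (1.69 ± 0.305). The 4 libraries of high sample number sat together at 0.767 to 0.784%, below all of the other 13, which ran from 1.08 to 2.05%. The largest rRNA share was 2.68 times the smallest, against 1.63 times for the protein-coding genes. The tRNA genes took 0.00325 to 0.00988% of counts and all 4 groups overlapped.

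Counts on rRNA genes per count on protein-coding genes, a ratio in which the library total cancels, was 0.9175, 0.760, 0.750, 0.819 and 0.833 in CTRL. In T5 it was 1.025, 1.21, 0.965 and 1.11, all above CTRL. In T1 replicate 1 it was 1.02, and in the 4 libraries of high sample number 0.616 to 0.715, so T1 holds values on both sides of CTRL. T3 replicates 1, 2 and 3 had 0.845, 0.763 and 1.13. This ratio was chosen after its values were seen and has no test.

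**Figure D2:**
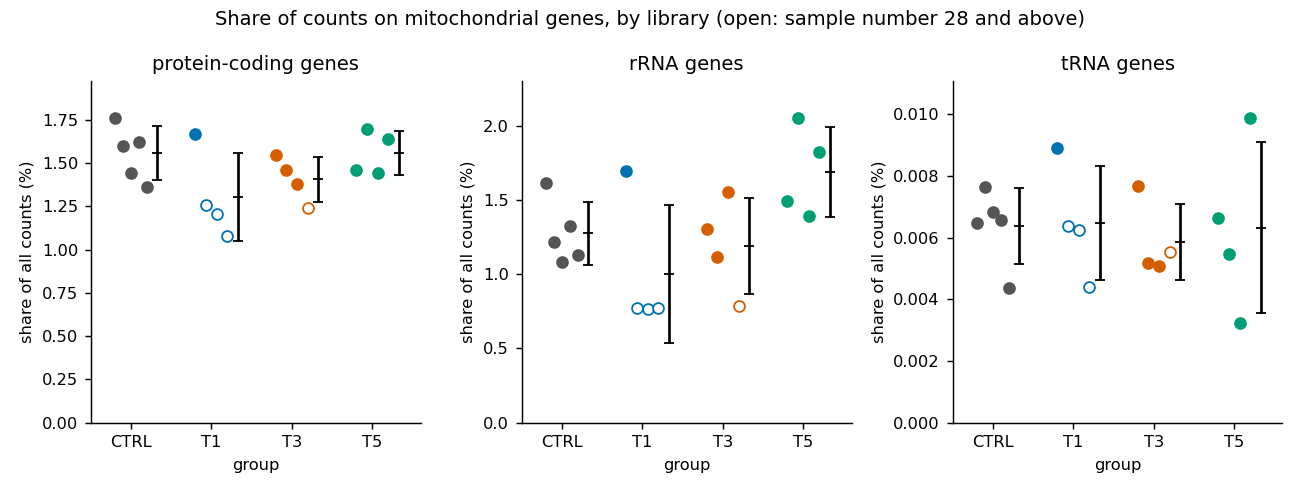
Share of all counts (%) on protein-coding, rRNA and tRNA genes of the mitochondrial chromosome, 1 point per library, with mean ± SD beside each group and open symbols for sample number 28 and above. The 4 open points lie below every filled one for rRNA (0.767 to 0.784% against 1.08 to 2.05%) and for protein-coding genes (1.08 to 1.26% against 1.36 to 1.76%), but not for tRNA.

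Single genes were tested with edgeR's quasi-likelihood test, adjusted (Benjamini-Hochberg) over 16851 genes. Of the 37 members 19 passed the filter on low counts: 8 protein-coding genes, both rRNA genes and 9 tRNA genes. None of the 19 passed an adjusted p of 0.05 in any of the 6 comparisons between groups. The share of all genes called was 0% for T1 vs CTRL, T3 vs CTRL, T5 vs CTRL, T3 vs T1 and T5 vs T3, and 4.02% for T5 vs T1. DESeq2 called 0 members in T1 vs CTRL (4.16% of all genes), T3 vs CTRL (0.0119%), T5 vs CTRL (0.0712%), T3 vs T1 (0.0949%) and T5 vs T3 (0.475%). At an unadjusted p under 0.05, edgeR gave 3 members with a negative and 0 with a positive difference in T1 vs CTRL (11.7% and 9.43% of all genes), 21.1% of all genes in either direction. It gave 7 with a positive and 0 with a negative difference in T5 vs T1 (13.1% and 12.7%), and 1 with a positive and 0 with a negative difference in T5 vs T3 (4.31% and 6.15%). It gave none in T3 vs CTRL (3.2% of all genes higher and 1.77% lower, 4.97% together), T5 vs CTRL (3.89% and 3.94%, 7.83% together) or T3 vs T1 (3.57% and 4.63%, 8.2% together). No member's groups lay apart without overlap in T1 vs CTRL, where 6.76% of genes did, in T3 vs CTRL (1.7%), T3 vs T1 (2.68%) or T5 vs T1 (12.2%).

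Among the 19 tested members, the 2 rRNA genes had the largest log2 differences of T5 from CTRL, T1 and T3. mt-Rnr1, the small subunit rRNA, had 1402, 1213, 1199, 1482 and 1063 CPM in CTRL and 1535, 2108, 1647 and 1888 CPM in T5. All T5 libraries lay above all CTRL libraries, as for 2.56% of genes tested. Its T5 vs CTRL log2 difference of 0.50 ± 0.30 (SE) did not pass edgeR's test (adjusted p = 0.72). T1 had 1808, 595, 676 and 645 CPM, with replicate 1 above and the other 3 below the CTRL range, and T3 had 1169, 1043, 1495 and 610. T5 also lay above all of T3 (0.73 ± 0.315, adjusted p = 0.445 in edgeR), as for 7.36% of genes, and against T1 the difference was 0.95 ± 0.32 (adjusted p = 0.0771).

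mt-Rnr2, the large subunit rRNA, had its lowest values in the same 4 libraries. It had 13213, 11476, 10060, 13006 and 10365 CPM in CTRL, 16783, 6832, 6208 and 5593 in T1, 12507, 10538, 15209 and 6231 in T3, and 14319, 18064, 12480 and 18811 in T5. T5 replicate 3 fell inside the CTRL range, so these groups overlapped (0.45 ± 0.30, edgeR adjusted p = 0.755). Against T1 the T5 difference was 0.85 ± 0.32 (edgeR adjusted p = 0.106). For T1 vs CTRL the differences were -0.45 ± 0.30 for mt-Rnr1 and -0.39 ± 0.30 for mt-Rnr2 (edgeR adjusted p = 0.384 and 0.451). Without the 4 libraries of high sample number, which leaves T1 with replicate 1, taken to have the spread of the other groups, they were 0.49 and 0.51.

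Complex I, the NADH dehydrogenase that feeds electrons into the chain, takes 7 subunits from this genome, and 6 of their genes were tested. mt-Nd1 had 3540, 3489, 2928, 3691 and 2940 CPM in CTRL and 3487, 2320, 1936 and 1756 in T1. T1 replicates 2, 3 and 4 lay below all CTRL libraries and replicate 1 among them. The T1 vs CTRL difference was -0.48 ± 0.19 (edgeR adjusted p = 0.182). T3 had 3249, 3189, 3204 and 2002 CPM and T5 had 3272, 3330, 3117 and 3918, each overlapping CTRL.

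mt-Nd4 and mt-Nd6, both of complex I, gave the other members with an unadjusted p under 0.05 in T1. mt-Nd4 had 1264, 1245, 1208, 1574 and 1192 CPM in CTRL and 1476, 863, 807 and 645 in T1 (-0.45 ± 0.21, edgeR adjusted p = 0.222). mt-Nd6 had 600, 589.5, 587, 687 and 531 CPM in CTRL and 601, 433, 398 and 325.5 in T1 (-0.45 ± 0.17, edgeR adjusted p = 0.173). In both genes T1 replicate 1 sat in the CTRL range and the other 3 below it. mt-Nd4 had 1236, 1351, 1264 and 769.5 CPM in T3 and 1402, 1548, 1545 and 1597 in T5, all T5 libraries above all T3 libraries, as for 7.36% of genes (0.40 ± 0.22, edgeR adjusted p = 0.512). mt-Nd6 had 537, 603, 562 and 356 CPM in T3 and 576, 700.2, 543 and 669 in T5.

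In the remaining complex I genes T1 replicates 2 to 4 again lay below CTRL. mt-Nd2 averaged 1925 ± 218.5 CPM in CTRL, 1416 ± 559 in T1, 1676 ± 415 in T3 and 2100 ± 207 in T5. mt-Nd5 averaged 2727 ± 196, 2105 ± 557, 2525 ± 548 and 2761 ± 259.5, and mt-Nd3, with few bases outside a nuclear match, 13.6 ± 1.42, 10.6 ± 5.37, 13.8 ± 5.02 and 16.8 ± 3.55. T1 replicate 1 had 2219, 2834 and 17.55 CPM of mt-Nd2, mt-Nd5 and mt-Nd3, inside the CTRL range for mt-Nd2 and mt-Nd5 and above it for mt-Nd3. Replicates 2 to 4 had 935 to 1320, 1509 to 2172 and 4.46 to 10.5 CPM. T1 vs CTRL differences were -0.44 ± 0.22, -0.37 ± 0.18 and -0.36 ± 0.31 (edgeR adjusted p = 0.255, 0.238 and 0.499).

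mt-Cytb, the subunit of complex III, had 3919, 3938, 3758, 4343 and 3395 CPM in CTRL, 4451, 2989, 2698 and 2118 in T1, 3949, 3608, 3598 and 2888 in T3, and 3970, 4331, 3794 and 4598 in T5. T1 again split, with replicate 1 above and the rest below CTRL (-0.34 ± 0.175, edgeR adjusted p = 0.275). T5 and CTRL overlapped widely (0.11 ± 0.17, edgeR adjusted p = 0.928).

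mt-Co1 was the only tested gene of complex IV, and its T1 libraries did not lie below CTRL as a set. It had 1749, 2746, 2178, 2169 and 1473 CPM in CTRL, 3211, 1958, 1874 and 1436 in T1, 2623, 1562, 1531 and 2027 in T3, and 1711, 1485, 1166 and 2633 in T5. All groups overlapped. The T1 vs CTRL difference was 0.04 ± 0.27 (edgeR adjusted p = 0.939), and it changed sign without T1 replicate 1 (-0.24), CTRL replicate 1 or CTRL replicate 5. mt-Co2 and mt-Co3 of complex IV and mt-Atp6 and mt-Atp8 of complex V, the ATP synthase, had too few reads to test.

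Over the 8 tested protein-coding genes, 7 differences from CTRL were negative in T1, 7 in T3 and 1 in T5. Their median log2 difference was -0.41 in T1, -0.15 in T3 and 0.08 in T5, beside 0.08, 0.02 and 0.02 over all genes tested. Without the 4 libraries of high sample number the T1 median was 0.18, and with a term for those libraries 0.10. The T3 median was -0.04 without those 4 libraries, 0.004 with the term and -0.05 without T3 replicate 4 alone. Over all genes tested, the T3 medians in these fits were -0.03, -0.02 and -0.03. The 3 comparisons share the CTRL libraries, and the members share a genome and a precursor, so their signs are not independent.

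In T5 vs T1, 7 members had an unadjusted p under 0.05, all positive: both rRNA genes, mt-Nd1 (0.52 ± 0.20), mt-Nd2 (0.57 ± 0.23), mt-Nd4 (0.68 ± 0.22), mt-Nd6 (0.50 ± 0.18) and mt-Cytb (0.45 ± 0.18), with edgeR adjusted p from 0.067 to 0.138. DESeq2 called 4 of them, mt-Rnr1, mt-Rnr2, mt-Nd4 and mt-Nd6, where it called 12.8% of all genes. limma-voom with sample quality weights called 9 in T5 vs T1, where it called 22.2% of all genes, 8 in T1 vs CTRL (24.6%) and 9 in T3 vs T1 (24.5%). Without T1 replicate 1, edgeR called 8 members in T1 vs CTRL (12.7% of genes) and 9 in T5 vs T1 (18.2%), and without T3 replicate 4 it called 3 in T5 vs T1 (12.9%). With the 4 libraries of high sample number left out or given a term, it called none in either comparison.

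**Figure D3:**
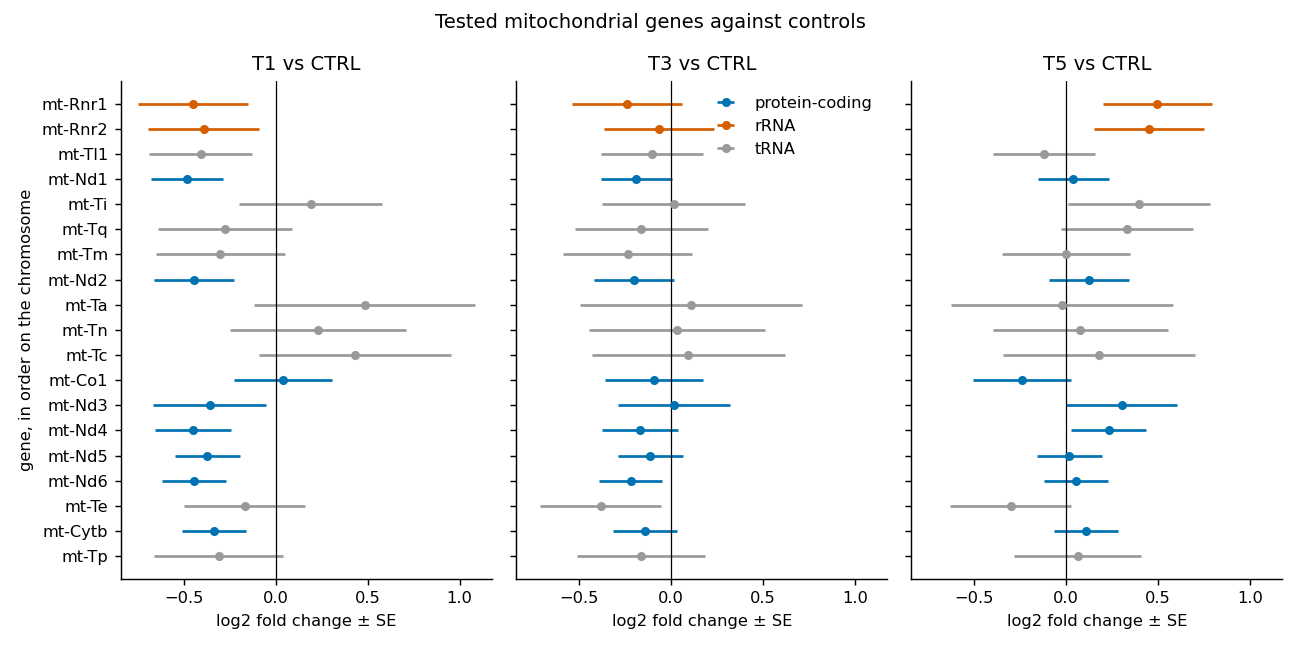
Log2 fold change ± SE (edgeR) of the 19 tested genes against CTRL in T1, T3 and T5, in chromosome order. In T1 all rRNA and protein-coding points but mt-Co1 lie left of 0, in T5 both rRNA genes lie near 0.5, and no point passes an adjusted p of 0.05.

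Of the 22 tRNA genes, 9 passed the filter: mt-Tl1, mt-Ti, mt-Tq, mt-Tm, mt-Ta, mt-Tn, mt-Tc, mt-Te and mt-Tp, the tRNAs for leucine, isoleucine, glutamine, methionine, alanine, asparagine, cysteine, glutamate and proline. Their CTRL means ran from 21.3 (mt-Tn) to 189 (mt-Te) CPM per kb, at lengths of 66 to 75 bases. Of these, 6 lie on the minus strand, 3 of them (mt-Ta, mt-Tn and mt-Tc, chrM:5018-5257) in the gap between mt-Nd2 and mt-Co1. The other 13 tRNA genes had 0 to 103 counts over all 17 libraries, mt-Tt (103) and mt-Tf (102) the most. No tested tRNA passed the threshold against CTRL: edgeR's adjusted p was 0.398 or more in T1, 0.911 or more in T3 and 0.866 or more in T5. The widest differences were 0.48 ± 0.60 for mt-Ta and 0.43 ± 0.52 for mt-Tc in T1.

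The make-up of the mitochondrial counts also varied between libraries. As a percent of the counts on protein-coding members, mt-Cytb was the steadiest, 23.6 to 26.7% with a coefficient of variation of 3.26% over the 17 libraries. mt-Co1 was the least steady, 7.96 to 18.7% with a coefficient of variation of 25.1%. The other 6 had 5.86 to 18.1%. mt-Nd6 counts per mt-Nd5 count, from adjoining genes on opposite strands, kept within 0.199 to 0.234, and mt-Rnr1 per mt-Rnr2 within 0.0871 to 0.132. With the strand setting unknown, the ratio of mt-Nd6 to mt-Nd5 need not compare RNA of opposite strands.

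mt-Co1 was therefore set against mt-Nd1, which shares no window with a nuclear transcript. CTRL had 0.494, 0.787, 0.744, 0.588 and 0.501 mt-Co1 counts per mt-Nd1 count, and T1 had 0.921, 0.844, 0.968 and 0.818. All 4 T1 libraries lay above all CTRL libraries, among them replicate 1, whose sample number is below 28. T3 had 0.807, 0.490, 0.478 and 1.01, with 2 libraries below the CTRL range, 1 between the CTRL and T1 ranges and 1 above T1. T5 had 0.523, 0.446, 0.374 and 0.672. This ratio, like the other ratios of single members given here, was picked after its values were seen, so it has no test. How often other pairs of genes lie apart in this way was not computed.

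The tRNAs of the gap before mt-Co1 also varied against mt-Nd1. The GENCODE M21 transcripts of mt-Tc and mt-Ta are given to show how short the counted stretches are. They hold no capitals, since no base falls in a shared window.
mt-Tc, minus strand, chrM:5192-5257: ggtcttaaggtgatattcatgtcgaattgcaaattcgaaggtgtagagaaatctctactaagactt
mt-Ta, minus strand, chrM:5018-5086: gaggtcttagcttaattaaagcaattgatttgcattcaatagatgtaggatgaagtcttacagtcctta
mt-Ta counts per 1000 mt-Nd1 counts were 1.48, 2.35, 2.64, 1.6 and 0.515 in CTRL, 3.72, 3.48, 3.61 and 2.33 in T1, 3.47, 1.13, 1.15 and 3.17 in T3, and 1.99, 0.875, 0.273 and 3.12 in T5. The 5 highest mt-Ta values were those of T1 replicates 1, 2 and 3 and T3 replicates 1 and 4, which also had more mt-Co1 per mt-Nd1 than any CTRL or T5 library. Both ratios divide by the same mt-Nd1 counts, so they are not independent. T1 replicate 4, with mt-Co1 equally above CTRL, had mt-Ta inside the CTRL range. mt-Tc ran from 0.569 (T5 replicate 3) to 5.42 per 1000 mt-Nd1 counts and mt-Tn from 0.213 (T5 replicate 2) to 1.0. T5 replicate 4 had 4.82 and 0.92, so T5 was not low as a group. The strand setting of the counting is not given in the sources used here, so reads of the minus-strand tRNAs and of a plus-strand precursor across the same bases cannot be told apart.

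mt-Rnr2 per mt-Nd1 kept a narrow range in CTRL, 3.29 to 3.73, and T5 lay above it at 4.00 to 5.42. T1 replicate 1 had 4.81 and T3 replicate 3 had 4.75, while the 4 libraries of high sample number had 2.94 to 3.21, below all others. This ratio was also picked after its values were seen, and the CPM of mt-Rnr2 overlapped between T5 and CTRL. mt-Cytb per mt-Nd1 stayed within 1.11 to 1.44 throughout.

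**Figure D4:**
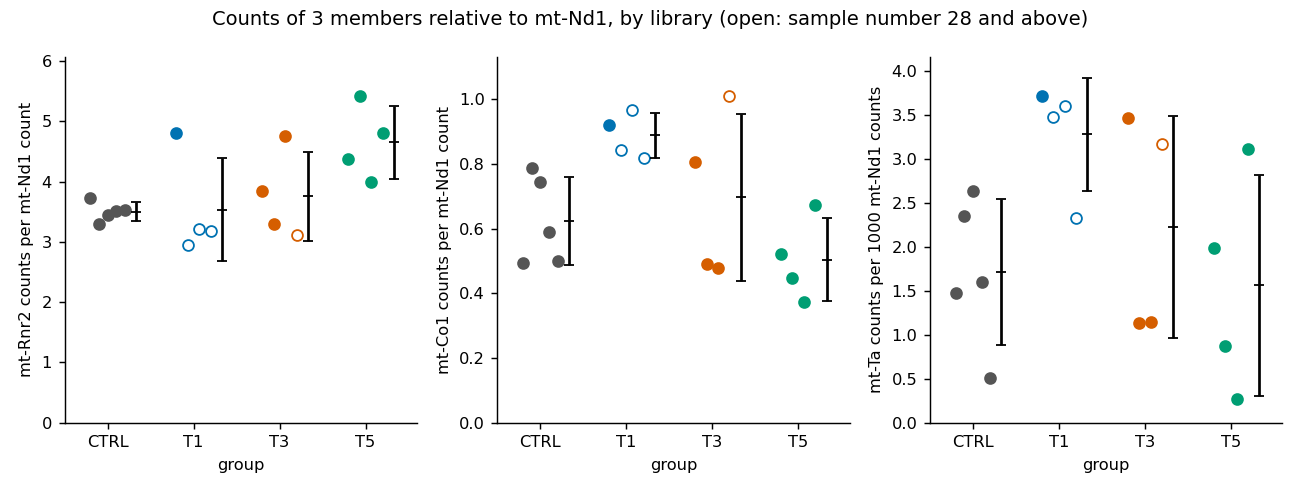
Counts of mt-Rnr2 and mt-Co1 per mt-Nd1 count and of mt-Ta per 1000 mt-Nd1 counts, 1 point per library, with mean ± SD beside each group and open symbols for sample number 28 and above. All T5 libraries lie above CTRL for mt-Rnr2 (4.00 to 5.42 against 3.29 to 3.73), and all T1 libraries for mt-Co1 (0.818 to 0.968 against 0.494 to 0.787). The ratios were picked after their values were seen and have no test.

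The nuclear genes of the same complexes followed a like split by library. Of 74 nuclear subunit genes of complexes I, III, IV and V, 71 had a negative T1 vs CTRL difference, with a median of -0.53 (0.08 over all genes), and 56 had an unadjusted p under 0.05 in that direction (11.7% of all genes). None passed edgeR's adjusted threshold, while DESeq2 called 12 lower (4.16% of all genes called in either direction) and limma-voom 71 (24.6% in either direction). Ndufs3 of complex I (-0.59 ± 0.18), Uqcrc1 of complex III (-0.49 ± 0.14), Cox5a of complex IV (-0.56 ± 0.175) and Atp5d of complex V (-0.62 ± 0.19) each had an edgeR adjusted p of 0.138. Without the 4 libraries of high sample number, 34 of 74 were negative, none had an unadjusted p under 0.05 in that direction, and the median was 0.01. In T3, 71 of 74 were negative (median -0.17) and in T5, 69 were positive (median 0.14), with 0 at an unadjusted p under 0.05 in both.

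By library, the mean log2 CPM of these 74 genes was 7.21 to 7.76 in the 4 libraries of high sample number and 8.05 to 8.60 in the other 13. T1 replicate 1 had 8.26, inside the CTRL range of 8.05 to 8.40. T3 replicates 1, 2 and 3 had 8.29, 8.13 and 8.27, also inside that range, and T3 replicate 4 had 7.35. The 4 subunits of complex II, the succinate dehydrogenase, which has no mitochondrial gene, were all negative in T1 (median -0.45), and 3 had an unadjusted p under 0.05, beside 11.7% of all genes in that direction. Sdhb had -0.58 ± 0.19 (edgeR adjusted p = 0.142). Without the 4 libraries of high sample number, 3 of 4 were negative, 0 had an unadjusted p under 0.05, and the median was -0.03.

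**Figure D5:**
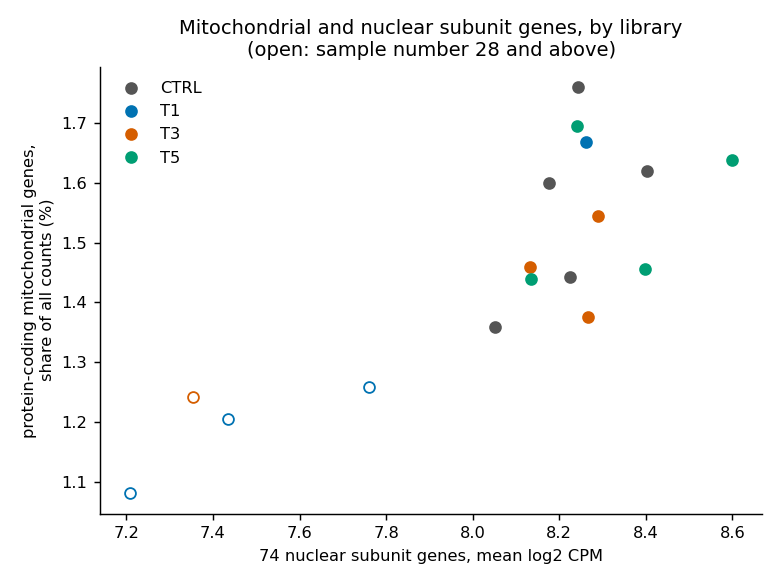
Share of all counts (%) on mitochondrial protein-coding genes against the mean log2 CPM of 74 nuclear subunit genes, 1 point per library, coloured by group, with open symbols for sample number 28 and above. The 4 open points are lowest on both axes, at 1.08 to 1.26% and 7.21 to 7.76, and T1 replicate 1 sits among the filled points at 1.67% and 8.26.

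Lists of genes that act on the mitochondrial genome and its RNA had medians nearer to 0. None of those listed passed edgeR's adjusted threshold against CTRL. Their counts at an unadjusted p under 0.05 are to be read against 21.1% of all genes in T1, 4.97% in T3 and 7.83% in T5. Among 20 genes of transcription and maintenance, 14 were negative in T1 (median -0.14). An unadjusted p under 0.05 was reached by 4 of 20, near the 21.1% of all genes: Polg, the replicating polymerase (0.45 ± 0.15, edgeR adjusted p = 0.141), the elongation factor Tefm (-0.47 ± 0.16, 0.146), the rRNA methyltransferase Tfb1m (-0.52 ± 0.18, 0.152) and Mrpl12 (-0.48 ± 0.20, 0.191). None of the 20 reached it in T3 or T5. Their mean log2 CPM was 3.65 to 3.795 in the 4 libraries of high sample number and 3.81 to 3.97 in the other 13. The stress response genes below split likewise, at 3.79 to 3.985 against 4.02 to 4.25. For RNA processing, translation factors and biogenesis regulators these ranges overlapped.

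Among 21 genes of RNA processing, stability and decay, 17 were negative in T1 (median -0.15), with Rexo2, an oligoribonuclease (-0.44 ± 0.16, edgeR adjusted p = 0.158), and Hsd17b10, a subunit of mitochondrial RNase P (-0.53 ± 0.20, 0.169), at an unadjusted p under 0.05, 2 of 21 beside 21.1% of all genes. Fastkd2, which binds mt-Rnr2 RNA, was the only one in T3 (0.43 ± 0.13, edgeR adjusted p = 0.911) and had 0.27 ± 0.13 in T5 (0.638), beside Fastk (-0.23 ± 0.10, 0.621).

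Among 14 translation factors, 9 were negative in T1 (median -0.18). C1qbp (-0.45 ± 0.10), the elongation factors Tsfm (-0.53 ± 0.13) and Tufm (-0.35 ± 0.13), and the initiation factor Mtif3 (-0.43 ± 0.14) had an unadjusted p under 0.05, with edgeR adjusted p from 0.128 to 0.156, and so did Guf1, a GTPase of elongation (0.425 ± 0.16, 0.162), together 5 of 14 beside 21.1% of all genes. In T5, Guf1 (-0.41 ± 0.16, edgeR adjusted p = 0.601) and Gfm2, which recycles ribosomes (-0.30 ± 0.13, 0.617), reached it, and none did in T3.

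Among 15 regulators of biogenesis, 9 were negative in T1 (median -0.09). The coactivator Pprc1 (0.63 ± 0.23) and the orphan receptor Esrrg (0.45 ± 0.175) were positive at an unadjusted p under 0.05, and the deacetylase Sirt3 (-0.27 ± 0.11) and Esrra (-0.24 ± 0.105) negative, with edgeR adjusted p from 0.159 to 0.206. These are 4 of 15, beside 21.1% of all genes. Tfe3 reached it in T3 (-0.27 ± 0.09, edgeR adjusted p = 0.911) and Esrrg in T5 (-0.40 ± 0.18, 0.619). Of 12 tested genes of the mitochondrial unfolded protein and integrated stress responses, 10 were negative in T1 (median -0.21), Clpp, a matrix protease (-0.51 ± 0.15, edgeR adjusted p = 0.138), and Atf4 (-0.24 ± 0.11, 0.219) at an unadjusted p under 0.05, 2 of 12 beside 21.1% of all genes.

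In T5 vs T1, where 4.02% of all genes passed edgeR's adjusted threshold, 6 of the listed genes did. Tfb1m (0.70 ± 0.19, adjusted p = 0.0499), C1qbp (0.42 ± 0.11, 0.0387) and the complex I subunit Ndufb8 (0.76 ± 0.21, 0.0499) were higher in T5, and Guf1 (-0.83 ± 0.17, 0.021), Gfm2 (-0.56 ± 0.14, 0.0392) and Esrrg (-0.85 ± 0.19, 0.0246) lower. The calls were fragile: of 26 alternatives, edgeR or the other tools kept Guf1 and Esrrg in 18 each, Gfm2 in 12, C1qbp in 9, and Ndufb8 and Tfb1m in 7 each. None of the 6 was called without the 4 libraries of high sample number (edgeR adjusted p from 0.607 to 0.753) or with a term for them (0.365 to 0.687). Without them, and with the term, the log2 difference was 0.23 and 0.18 for Ndufb8, -0.42 and -0.40 for Guf1, 0.27 and 0.17 for C1qbp, and 0.48 and 0.37 for Tfb1m. For Esrrg it was -0.76 and -0.86, and for Gfm2 -0.56 and -0.43.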

How the data were processed

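Gene expression was measured by RNA-seq in 17 mouse choroid plexus libraries (CTRL 5, T1, T3 and T5 4 each), grouped by the time point in the labels. The authors deposited 1 table of raw counts, reads per Ensembl gene. Tools named in the submitters' processing notes are featureCounts 1.6.4, STAR 2.6.1b and Trimmomatic 0.39, with the build GRCm38. Settings, read length, strand and the treatment of reads with several matches are not given in sources used here. PCR copies count as reads, so floors cover counting error only. Within groups, chi-square per gene between pairs of libraries was 8.11 to 121, so none was treated as a repeat.

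Members were all genes of chromosome M in GENCODE release M21 (1-based); 55394 of 55487 identifiers were found there. Genes that passed filterByExpr by group (16851) went into 1 robust quasi-likelihood model of edgeR 4.0.16 (R 4.3.3) with TMM factors and a mean for each group, fitted to the 17 libraries together, with F tests, Benjamini-Hochberg adjustment, threshold 0.05. CPM are TMM-normalised and levels per kb use annotated gene length. The SE is the absolute log2 fold change over the square root of F and is approximate. Lists are summarised by mean log2(CPM + 0.5). Alternatives were limma-voom 3.58.1 (sample weights), DESeq2 1.42.0, other scalings and filters, left-out libraries and covariates. The fit was tested on simulated counts. All members were accounted for by name or count, and up to 3 genes of each list with the smallest p per comparison with CTRL were named; Mrpl12, Tufm, Esrra and the genes called in T5 vs T1 were added after their values were seen. The members and lists were chosen with earlier results of these data known.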

Additional observations from a re-analysis of the deposited data

Results flagged for a closer look

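In 88 tests of 1 library against the rest of its group (each tested gene and each share, groups of 4 or 5), 7 values stood apart by Dixon's gap at the 95% level; chance gives about 1 in 20. T1 replicate 1 had 1808 CPM of mt-Rnr1 (595 to 676 in the other T1 libraries), 16783 CPM of mt-Rnr2 (5593 to 6832) and an rRNA share of 1.70% (0.767 to 0.774%). It is the T1 library with a sample number below 28. T3 replicate 4, the T3 library with a number above 28, had 2002 CPM of mt-Nd1 (3189 to 3249 in the other T3 libraries) and 1060 CPM of mt-Nd2 (1797 to 1937). In CTRL, replicate 4 had 1574 CPM of mt-Nd4 (1192 to 1264 in the others) and replicate 1 had 9.83 CPM of mt-Tl1 (4.84 to 6.13).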

How the results depend on the processing

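Of 780 values of single rRNA and protein-coding members against CTRL under alternatives (30 results), 716 kept sign and side of the threshold, 48 changed sign and 16 passed the threshold. For T1 vs CTRL, log2 differences without the 4 libraries of sample number 28 and above, and with a term for them, were 0.491 and 0.331 for mt-Rnr1, 0.513 and 0.382 for mt-Rnr2, 0.0544 and 0.0286 for mt-Nd1, 0.188 and 0.159 for mt-Nd2, 0.349 and 0.438 for mt-Nd3, 0.17 and 0.114 for mt-Nd4, 0.0377 and 0.0919 for mt-Nd5, and 0.184 and 0.0507 for mt-Cytb; mt-Nd6 turned only with the term (0.0169). mt-Co1 turned with limma-voom (-0.115) and when single libraries were left out (-0.238 to 0.189). For T3 vs CTRL, the term gave 0.0225 for mt-Rnr1, 0.186 for mt-Rnr2, 0.0209 for mt-Co1, 0.0112 for mt-Nd4 and 0.0232 for mt-Nd5, leaving out the 4 libraries gave 0.138 for mt-Rnr2 and 0.0385 for mt-Nd5, limma-voom gave 0.0982 for mt-Rnr2, and mt-Nd3 was -0.0015 without TMM and -0.0874 with the brain marker covariate. Leaving out 1 library gave -0.254 to 0.125 for mt-Rnr2, -0.276 to 0.032 for mt-Co1, -0.14 to 0.237 for mt-Nd3 and -0.188 to 0.0289 for mt-Nd5. For T5 vs CTRL, scaling without TMM gave -0.0129 for mt-Nd1 and -0.0259 for mt-Nd5, the brain marker covariate gave 0.0107 for mt-Co1, and leaving out 1 library gave -0.0347 to 0.0803 for mt-Nd1, -0.0546 to 0.0581 for mt-Nd5 and -0.0234 to 0.114 for mt-Nd6. Members called numbered 8, 9 and 9 with limma-voom in T1 vs CTRL, T3 vs T1 and T5 vs T1, and in T5 vs T1 4 with DESeq2, 1 without TMM (mt-Nd4; 7.93% of all genes called) and 4 with the brain marker covariate (13.2%); leaving out 1 library gave 0 to 8 in T1 vs CTRL and 0 to 9 in T5 vs T1. The T1 median of the protein-coding members was 0.177 without the 4 libraries and 0.103 with the term. The T1 minus CTRL share differences without the 4 libraries were 0.111, 0.42 and 0.00252 percentage points for protein-coding, rRNA and tRNA genes. Nuclear subunit genes lower in T1 at an unadjusted p under 0.05 numbered 0 without the 4 libraries and 0 with the term (chosen after seeing the data, like 100-base windows, which gave 30.8% shared for mt-Co1, 3.2% for mt-Nd2 and 0% for mt-Nd5 and mt-Rnr2, and like the alternatives for genes called in T5 vs T1). Apart from leaving those libraries out, which leaves T1 with 1, the cause of these shifts was not tested. Scaling without TMM moved the median of all genes in T1 vs CTRL from 0.08 to 0.21. No paired analysis was possible because the labels give no replicate numbers shared between groups. For genes at 0 counts, depth alone allows up to 0.112 to 0.338 CPM, counting error only. This does not bound the RNA level of genes whose reads may be lost in mapping or counting.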
